A study of Mus musculus with 4 samples.

Results

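The genes described here encode parts of the ciliary axoneme, the microtubule shaft that makes airway cilia beat. The rule for them goes by symbol and takes the Cfap, Dnah, Dnai (listed as Dnaic), Dnal, Dnaaf, Drc, Rsph and Tekt families, together with Ccdc39, Ccdc40, Ccdc65, Ccdc114 and Ccdc103. The rule took 77 of 25124 listed genes, of which 75 had a mean of at least 25.8 normalised reads (1 CPM of the mean library) over the 4 libraries and were tested. Airway epithelial cells had been sorted by flow cytometry from the lungs of wild-type C57BL/6 mice. All mice had been sensitised with house dust mite (HDM), an inhaled allergen. Mice of the first group had also received an inhibitor of stearoyl-CoA desaturase 1 (SCD1), an enzyme that makes monounsaturated fatty acids, and control mice had received dimethyl sulfoxide (DMSO). Each group held 2 libraries. Nothing in the labels says that they came from different animals, so p values measure only the spread between these libraries. Neither the compound, the dose and the route nor the age of the mice is given in the sources used here.

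A motile axoneme is a ring of paired microtubules around a central pair. Dynein motors sit on the ring as outer and inner arms and slide neighbouring microtubules past each other. Radial spokes pass signals from the central pair to the inner arms, a nexin-dynein regulatory complex links neighbouring doublets, and cytoplasmic assembly factors fold the dyneins before they enter the cilium. In the lung these genes are for the most part transcribed in multiciliated cells, where loss of many of them causes primary ciliary dyskinesia in humans.

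Most axonemal transcripts differed little between the groups, and 8 rose with the inhibitor: Ccdc39, Cfap47, Dnah12, Cfap53, Cfap36, Cfap43, Cfap44 and Cfap58. Their folds ran from 1.52 to 2.68. None of the 75 genes fell, at an adjusted p or at an unadjusted p under 0.05. At an unadjusted p under 0.05 in limma, 26 of the 75 were higher. Among the 13810 genes tested, 1127 were higher and 817 lower at that threshold. With limma, 1.36% of the 13810 genes tested rose and 0.427% fell, against 8 of 75 and 0 of 75 axonemal genes. The median log2 fold change was 0.14 over the axonemal genes and 0.0056 over all genes tested. Of the 75, 59 were positive and 42 lay between -0.2 and 0.2. Over all 13810 genes tested, 7000 were positive. In 38 axonemal genes both inhibitor libraries lay above both DMSO libraries, and in 4 both lay below. These patterns held in 22.7% and 22.2% of all genes tested.

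In bulk RNA, more ciliated cells and more RNA per ciliated cell cannot be told apart. The 77 genes together took 3.17% and 3.29% of all normalised reads in the inhibitor libraries and 2.78% and 2.58% in the DMSO libraries. The groups did not overlap in this share. Ciliated cell markers outside the family moved in part the same way: of 14, 11 were positive, 9 were higher with the inhibitor without overlap and 2 rose, Fam216b (0.58, adjusted p = 0.0203) and Ccdc113 (0.53, adjusted p = 0.0417), with a median of 0.24. Their summed share overlapped between groups, at 1.91% and 1.98% with the inhibitor and 1.87% and 1.98% with DMSO. Sec14l3, the most abundant of them, had 275476 and 277573 reads with the inhibitor and 299679 and 286968 with DMSO. The 13 markers without it took 0.847% and 0.905% with the inhibitor and 0.718% and 0.861% with DMSO. The forkhead factor Foxj1, the master regulator of motile cilia, had 51757 and 54569 reads with the inhibitor and 49818 and 61535 with DMSO.

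**Figure D1:**
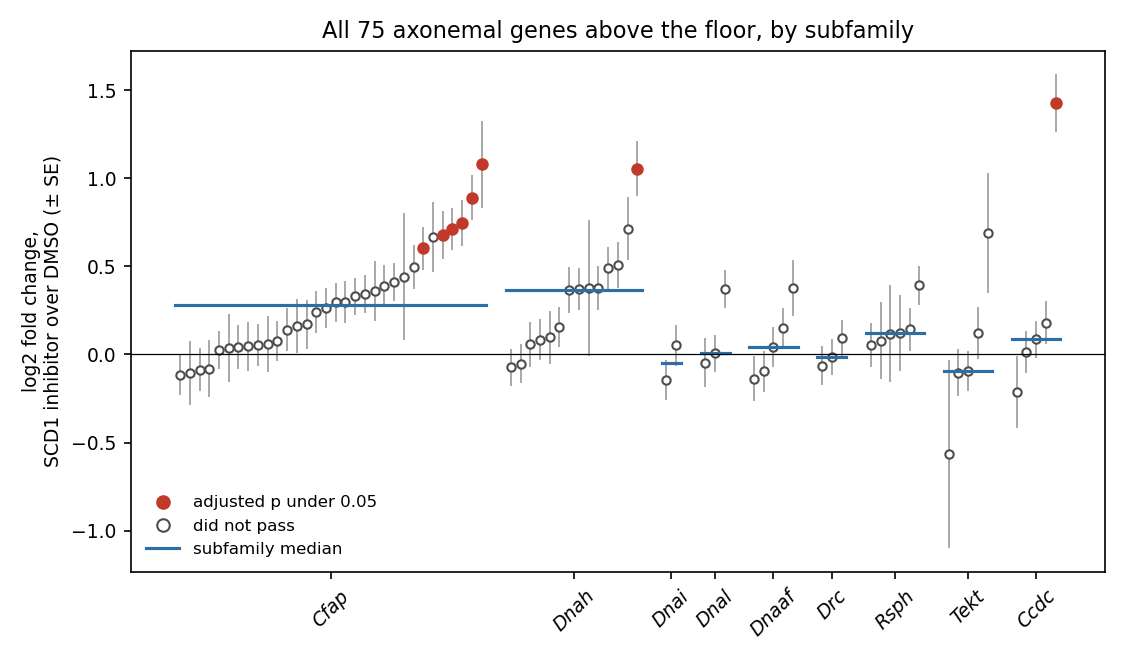
The vertical axis gives the log2 fold change, SCD1 inhibitor over DMSO, of each of the 75 tested axonemal genes with its standard error, grouped by subfamily; filled points passed at an adjusted p under 0.05 and the horizontal lines are subfamily medians. The Cfap and Dnah medians (0.28 and 0.37) lie above those of the other subfamilies with all 4 libraries, though not without DMSO replicate 2 (0.27 and 0.20, against 0.23 for Rsph), and 6 of the 8 filled points are Cfap genes.

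The ruler and docking proteins gave the highest value of the whole set beside values near 0. Ccdc39 and Ccdc40 form the molecular ruler along each doublet that places the inner arms and radial spokes. Ccdc39 (chromosome 3, 33812362 to 33844310, minus strand, mm10) had 14105 and 14191 reads in the inhibitor libraries, against 6580.1 and 4195 in the DMSO libraries. The groups did not overlap, and the inhibitor libraries lay closer together than the DMSO pair. The log2 fold change was 1.42 ± 0.16 (SE, adjusted p = 0.00140). Its partner Ccdc40 had 21213 and 22281 reads with the inhibitor and 21357 and 19622 with DMSO, with overlap between groups (0.087 ± 0.10, adjusted p = 0.772). The ratio of Ccdc39 to Ccdc40 reads was thus 0.665 and 0.637 with the inhibitor and 0.308 and 0.214 with DMSO. With 2 libraries against 2, the smallest two-sided p of an exact permutation test is 0.333, so the ratio was not tested. The longest transcript had a GC content of 39.9% for Ccdc39 and 54.6% for Ccdc40, and fold change moved with GC content, as described below.

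The remaining Ccdc genes did not pass. Ccdc114, a subunit of the outer arm docking complex, had 0.18 on the log2 scale (adjusted p = 0.552). Ccdc65, which is subunit DRC2 of the nexin-dynein regulatory complex, had 0.014 (adjusted p = 0.974). Ccdc103, needed to attach dynein arms, had -0.21 (adjusted p = 0.700), at 1104 and 1246 reads with the inhibitor and 1123 and 1653 with DMSO. The high DMSO replicate 2 sets its sign, since the value was 0.061 without that library.

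Ccdc39 shares exon bases with a neighbour that moved with it. Ttc14, which encodes a tetratricopeptide repeat protein and lies on the opposite strand, covers 1256 exon bases of Ccdc39, 16.9% of the total. Ttc14 had 9563 and 8996 reads with the inhibitor and 4580.04 and 2714 with DMSO, with 1.39 ± 0.18 on the log2 scale (SE, adjusted p = 0.00298). The library kit keeps strand, but whether the counting used it is not given in the sources used here, so reads of the shared stretch cannot be assigned to either gene. Of the 75 genes, 20 shared exon bases with another tested gene and 5 shared at least 10% of theirs, and Ccdc39 is the gene among the 8 that did so.

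The dynein heavy chains, the motor subunits, had a median log2 fold change of 0.37 over 14 genes, with 12 positive, 9 higher without overlap and 1 that rose. Without DMSO replicate 2 that median was 0.20, with Dnah5 at 0.22 and Dnah6 at 0.19. The gene that rose was Dnah12, a heavy chain of the single-headed inner arms (chromosome 14, 26693274 to 26891703, plus strand). It had 25099 and 24294 reads with the inhibitor and 14649.5 and 9633 with DMSO, without overlap. Its log2 fold change was 1.05 ± 0.16 (SE, adjusted p = 0.00508). Other inner arm heavy chains spread widely. Dnah6, the heavy chain with the most reads, had 65083 and 70627 reads with the inhibitor and 59626 and 46441 with DMSO (0.37 ± 0.13, adjusted p = 0.205). Dnah1 had the lowest value of the family, at 18277 and 19729 reads with the inhibitor and 20379.7 and 19574 with DMSO (-0.073 ± 0.10, adjusted p = 0.816), and its groups overlapped. Dnah3, Dnah7a and Dnah7b, named after their values were seen, came nearest to the threshold without passing, with 0.49, 0.71 and 0.51 (adjusted p = 0.0550, 0.0630 and 0.0725). Dnah7a, Dnah7b and Dnah7c are close copies of each other, so reads may have been split among them. Dnah2 and Dnah10, the heavy chains of the double-headed inner arm, had 0.057 and 0.083.

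Outer arm heavy chains did not pass. Dnah5, found along the whole length of respiratory cilia, had 50642 and 50216 reads with the inhibitor and 43184 and 35244 with DMSO. The groups did not overlap, and the log2 fold change was 0.37 ± 0.12 (SE, adjusted p = 0.161). Dnah9, its partner in the outer part of the cilium, had 38616 and 39557 reads with the inhibitor and 43693 and 37595 with DMSO, with overlap (-0.052 ± 0.11, adjusted p = 0.884). The Dnah5 to Dnah9 ratio was 1.31 and 1.27 with the inhibitor and 0.988 and 0.937 with DMSO. Dnah11, the partner in the inner part, had 19123 and 21508 reads with the inhibitor and 19393 and 17101 with DMSO (0.16 ± 0.11, adjusted p = 0.589). Dnah8 and Dnah17, the outer arm heavy chains of the sperm tail, were low: per kilobase of transcript they averaged 104 and 13.7 reads over the 4 libraries, against 2866 for Dnah5 and 2889 for Dnah9.

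By symbol the rule took 13 Dnai, Dnal, Dnaaf and Drc genes, for smaller dynein subunits, assembly factors and the regulatory complex. None of the 13 passed, and most values lay near 0. That result holds for these symbols only. Of 39 tested axonemal genes that the rule did not take, 9 rose and 30 did not. The 9 include the dynein intermediate chain gene Wdr78 (0.57, adjusted p = 0.0203) and the dynein assembly gene Lrrc6 (0.70, adjusted p = 0.0322). The outer arm intermediate chains Dnaic1 and Dnaic2 had log2 fold changes of 0.051 and -0.14 (adjusted p = 0.892 and 0.622). Dnal1, an outer arm light chain, had 7685 and 7858 reads with the inhibitor and 6161 and 5844 with DMSO (0.37 ± 0.11, adjusted p = 0.125), which is the highest value among the 13 after that of Dnaaf4. The inner arm light chain Dnali1 and the light chain Dnal4 had 0.0069 and -0.048 (adjusted p = 0.987 and 0.915). Among the 5 assembly factors the median was 0.041. Dnaaf4 had 0.38 (adjusted p = 0.311), Dnaaf3, the one with most reads, 0.15 (adjusted p = 0.588) and Dnaaf2 -0.14 (adjusted p = 0.685). Drc1, Drc3 and Drc7 of the nexin-dynein regulatory complex had 0.091, -0.015 and -0.063 (adjusted p = 0.758, 0.966 and 0.860). Drc3 was steady across libraries, with 13883 and 14156 reads with the inhibitor and 13784 and 14548 with DMSO. Drc7 was less so, with 12164 and 13001 reads with the inhibitor and 12297 and 14039 with DMSO.

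All 6 tested radial spoke genes were positive and none passed, with a median of 0.12. Rsph4a, a spoke head protein, had 14096 and 15699.7 reads with the inhibitor and 11880.4 and 10820.1 with DMSO. Its groups did not overlap, and the log2 fold change was 0.39 ± 0.11 (SE, adjusted p = 0.106). Rsph9, another spoke head protein, had 0.055 (adjusted p = 0.893). The spoke head gene Rsph1 had the most reads per kilobase of all 77 genes, 10774 with the inhibitor and 9829 with DMSO on average, followed by Cfap65 with 7901 and 6291. Tektins, the filament proteins inside the doublets, had a median of -0.094 over 5 genes. Tekt1, the one with most reads, had -0.094 (adjusted p = 0.777). Tekt3 had 364 and 334 reads with the inhibitor and 177 and 239.8 with DMSO (0.69 ± 0.34, adjusted p = 0.398), and Tekt5 had 64.0 and 36.7 with the inhibitor and 77.0 and 94.1 with DMSO (-0.57 ± 0.53, adjusted p = 0.695). Both are low genes whose standard errors are among the widest. Tekt5 (mean 68.0 reads) was the lowest gene tested. Rsph6a (mean 4.96, with reads in DMSO replicate 2 alone) and Cfap97d1 (0 in all 4 libraries) lay below the floor.

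The Cfap genes, a mixed family of cilia and flagella associated proteins, held 6 of the 8 that rose. Over 32 tested members the median log2 fold change was 0.28, with 28 positive, 19 higher and 1 lower without overlap. Cfap43 and Cfap44 form the tether that holds the motor domain of a double-headed inner arm, as worked out in Chlamydomonas and Tetrahymena. Cfap43 (chromosome 19, 47736857 to 47919287, minus strand) had 27585 and 29425 reads with the inhibitor and 19332 and 15650.4 with DMSO (0.71 ± 0.12, adjusted p = 0.0108). Cfap44 (chromosome 16, 44394796 to 44482428, plus strand) had 36596 and 38264 reads with the inhibitor and 27324 and 19992 with DMSO (0.68 ± 0.13, adjusted p = 0.0263). Neither gene's groups overlapped, and their ratio stayed between 0.707 and 0.783 in all 4 libraries.

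Cfap53, a protein of the doublet lumen that is needed for left-right patterning, had 5344 and 6188 reads with the inhibitor and 3251 and 2947 with DMSO (0.89 ± 0.13, adjusted p = 0.00454). Cfap36 (chromosome 11, 29221532 to 29247409, minus strand), a binding partner of the ciliary GTPase ARL3, had 3866 and 4145 reads with the inhibitor and 2299 and 2463 with DMSO (0.74 ± 0.13, adjusted p = 0.0137). In these 2 genes the DMSO libraries lay close together. Cfap58 (chromosome 19, 47937675 to 48035387, plus strand), a coiled-coil protein needed for the mouse sperm tail, had 6773 and 7995 reads with the inhibitor and 4682 and 4995 with DMSO (0.60 ± 0.12, adjusted p = 0.0278). In GENCODE it starts 18387 bases beyond the 5′ side of Cfap43, which lies on the opposite strand. The RefSeq start of Cfap43, used for its promoter, lies further inside, 100351 bases from that of Cfap58. Cfap47 (chromosome X, 79266559 to 79517285, minus strand), a central pair protein in Chlamydomonas, had 2048 and 2034 reads with the inhibitor and 1341 and 675 with DMSO (1.08 ± 0.25, adjusted p = 0.0468). It was the gene nearest to the threshold among the 8, and its DMSO libraries differed nearly as much as the group means.

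Of the other Cfap genes, Cfap65, a central pair protein and the Cfap gene with most reads, had 45406 and 45091 reads with the inhibitor and 37380.1 and 34673 with DMSO. It did not pass (0.33 ± 0.10, adjusted p = 0.161), although the groups did not overlap. Cfap61, a protein at the base of the radial spokes in Chlamydomonas, had the lowest value of the family, at 5319 and 5443 reads with the inhibitor and 5917 and 5755 with DMSO (-0.12 ± 0.11, adjusted p = 0.704).

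**Figure D2:**
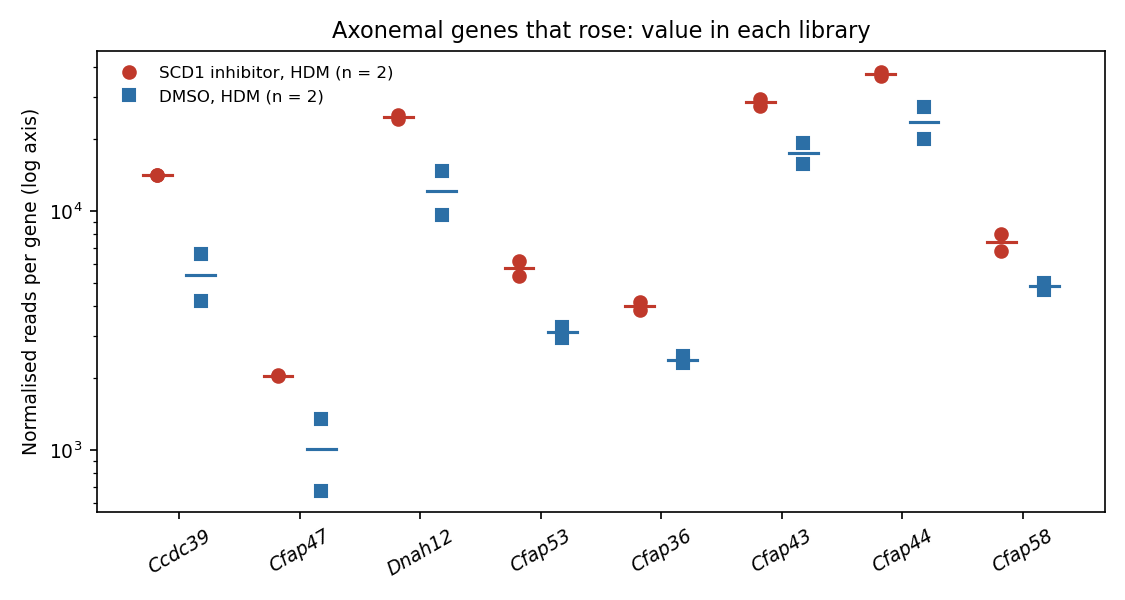
Normalised reads on a log axis are shown in each library for the 8 axonemal genes that rose, with SCD1 inhibitor libraries as circles, DMSO libraries as squares and group means as lines (n = 2 each). Every inhibitor library lies above every DMSO library of the same gene, and the DMSO squares of Ccdc39, Cfap47 and Dnah12 lie further apart than the inhibitor circles.

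Promoter sequences from RefSeq (GRCm38.p6), running from 250 bases before to 50 bases after each annotated start, were matched for 64 of the 75 genes. Motile cilium genes are commonly bound by RFX factors at the X-box and by FOXJ1 at forkhead motifs. An arm of the X-box, GTTGCCA, was found on either strand in 14 of the 64 promoters, 21.9%, against 5.06% of the promoters of all tested genes that could be matched. The forkhead motif GTAAACA was found in 4 of 64, 6.25%, against 3.27%. Of the 7 matched genes that rose, 2 held the X-box arm and 1 the forkhead motif. A match is a description of letters and not a binding site. The 250 bases before the start of these 3 genes are printed with the matched letters in capitals, and those of Ccdc39, which holds neither, because it had the highest fold change. In order they lie at chr16:44394549-44394798 (plus strand), chr19:47937462-47937711 (plus), chr19:47837362-47837611 (minus) and chr3:33844311-33844560 (minus).
Cfap44: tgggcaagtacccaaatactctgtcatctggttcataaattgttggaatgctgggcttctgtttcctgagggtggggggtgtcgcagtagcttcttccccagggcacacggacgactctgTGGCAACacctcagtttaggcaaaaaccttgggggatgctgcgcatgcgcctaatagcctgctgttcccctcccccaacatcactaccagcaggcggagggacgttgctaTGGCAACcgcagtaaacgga
Cfap58: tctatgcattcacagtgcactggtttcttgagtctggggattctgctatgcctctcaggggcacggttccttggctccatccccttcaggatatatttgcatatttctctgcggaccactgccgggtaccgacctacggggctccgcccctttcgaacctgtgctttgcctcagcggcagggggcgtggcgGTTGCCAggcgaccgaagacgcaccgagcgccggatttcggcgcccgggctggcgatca
Cfap43: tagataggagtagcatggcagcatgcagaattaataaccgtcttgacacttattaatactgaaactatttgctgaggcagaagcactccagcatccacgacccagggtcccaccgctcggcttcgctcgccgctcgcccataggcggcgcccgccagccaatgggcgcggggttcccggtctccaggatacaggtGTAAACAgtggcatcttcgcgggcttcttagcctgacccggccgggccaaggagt
Ccdc39: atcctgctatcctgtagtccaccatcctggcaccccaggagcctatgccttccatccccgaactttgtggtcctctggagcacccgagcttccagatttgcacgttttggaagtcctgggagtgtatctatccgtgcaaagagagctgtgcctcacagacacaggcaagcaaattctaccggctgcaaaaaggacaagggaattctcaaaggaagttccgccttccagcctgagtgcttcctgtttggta

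In Cfap44 the X-box arm stands on the strand opposite to the gene, so its reverse complement is in capitals, at 130 and 20 bases before the start, and in Cfap58 on the strand of the gene at 59 bases. The forkhead match of Cfap43 stands at 55 bases. Dnah12, Cfap36 and Cfap47 were matched and held neither motif. Rfx3, which encodes an RFX factor, rose (0.66 ± 0.14 on the log2 scale, adjusted p = 0.0322), at 5920.5 and 5648 reads with the inhibitor and 4178 and 3181 with DMSO. Among the 10 genes of the multiciliated transcription list it was the 1 that passed, and the list median was 0.010. The longest transcript of Rfx3 had a GC content of 40.2%. A link between Rfx3 and the promoter matches was not tested.

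Axonemal genes whose listed symbols the rule did not take also held some that rose and none that fell. Of 39 tested genes on that list, 33 were positive, 9 rose and 0 fell, with a median log2 fold change of 0.18. Ccdc113, Dynlrb2 and Lrrc23 are also among the ciliated cell markers above, so Ccdc113 is counted in both lists. Those that rose were the central pair genes Spef2 (0.99, adjusted p = 0.00932) and Spag17 (0.95, adjusted p = 0.0111), the doublet lumen genes Enkur (0.85, adjusted p = 0.00491) and Mns1 (0.66, adjusted p = 0.0137), and the dynein assembly gene Lrrc6 (0.70, adjusted p = 0.0322). The others were Ccdc146 (0.85, adjusted p = 0.00932), Iqub (0.63, adjusted p = 0.0432), the dynein intermediate chain gene Wdr78 (0.57, adjusted p = 0.0203) and Ccdc113 (0.53, adjusted p = 0.0417). Hydin, the central pair gene with most reads on the list, had -0.021 (adjusted p = 0.954).

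The fold change of the axonemal genes moved with the base composition of their transcripts. All 8 that rose had a GC content of 37.6% to 48.9% in their longest GENCODE M21 transcript, against a median of 51.7% in the other 67. Across the 75 genes, which share the same 4 libraries, log2 fold change and GC content had a Spearman rho of -0.67 (Pearson r = -0.70), against -0.38 (r = -0.35) across 13709 tested genes with a transcript. Log2 fold change and transcript length had a rho of 0.31 across the 75 genes and of 0.10 across the 13709. The tested genes were split by GC content into low, middle and high classes of equal size. In the low class all 22 axonemal genes were positive, with a median of 0.44. Over all 4570 genes of that class, 3284 were positive and the median was 0.18. In the middle class the medians were 0.094 over 30 axonemal genes and -0.023 over all, and in the high class 0.045 over 23 and -0.12 over all. Within each class the axonemal median thus lay above that of all genes. The 9 genes of the wider list that rose had 40.5% to 48.9% GC (median 43.0%). The 30 that did not had 40.2% to 56.5% (median 49.6%).

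GC content also moved with the difference between the DMSO libraries. Across the 75 genes, DMSO replicate 1 minus replicate 2 on the log2 scale had a rho of -0.48 with GC content and of 0.65 with transcript length. Across 13709 tested genes with a transcript these values were -0.19 and 0.21. The difference between the inhibitor libraries had rho values of -0.063 and 0.018 across the 75 genes. DMSO replicate 1 was the higher of its pair in 13 of 14 heavy chain genes, whose transcripts are the longest of the set, and in 24 of the other 61. Over all 13810 genes tested it was the higher in 7118. It was also the higher in 6 of the 8 genes that rose, by a median of 0.38, against -0.011 in the other 67. After a curve of expression on GC content was subtracted in each library, an alternative chosen after seeing the data, 4 of the 8 remained called: Ccdc39 (1.08, adjusted p = 0.00706), Cfap53 (0.78, adjusted p = 0.0238), Dnah12 (0.79, adjusted p = 0.0349) and Cfap43 (0.58, adjusted p = 0.0434). Then 0.35% of all genes rose. The other 4 no longer passed, although Cfap58 (0.58, adjusted p = 0.0597), Cfap36 (0.61, adjusted p = 0.0687) and Cfap44 (0.59, adjusted p = 0.0700) kept most of their fold change. Cfap47 had 0.63 (adjusted p = 0.298). The correction did not remove the trend: the corrected fold changes of the 75 genes still had a rho of -0.35 (r = -0.41) with GC content. The part of base composition in these differences was not tested.

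**Figure D3:**
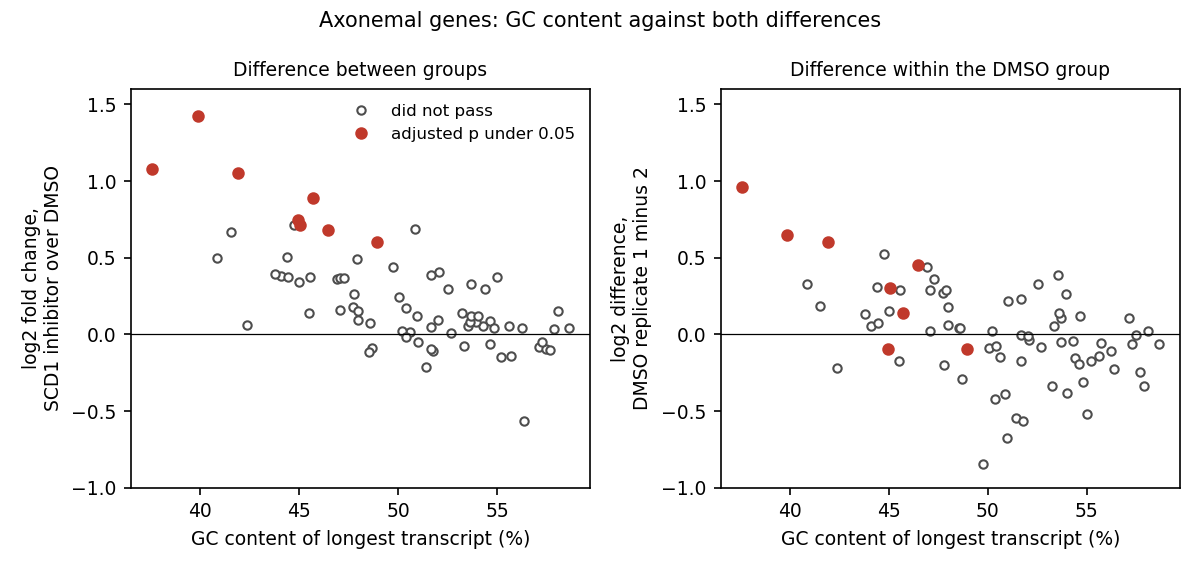
Each point is 1 of the 75 tested axonemal genes, placed by the GC content of its longest transcript (horizontal, percent), with genes that rose filled. On the left the log2 fold change, SCD1 inhibitor over DMSO, falls with GC content (rho -0.67), and on the right so does the log2 difference between DMSO replicates 1 and 2 (rho -0.48).

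How many axonemal genes passed depended on the test and on single libraries. edgeR on the recovered reads called 0 of the 75 genes, where 0.0458% of all genes rose, with adjusted p from 0.0612 to 0.214 for the 8. At an unadjusted p under 0.05 edgeR had 25 axonemal genes higher, against 1862 of 15299 genes in either direction. DESeq2 called 20 higher, the 8 among them, where 3.93% of all genes rose. Without SCD1 inhibitor replicate 1 or replicate 2 limma called 0 (0% and 0.0217% of all genes rose). The log2 fold changes of the 8 still ran from 0.71 to 1.43 and from 0.48 to 1.42. In those fits the spread within groups comes from the DMSO pair alone, and in the fits without a DMSO library from the inhibitor pair alone. Among the 8, the inhibitor pair was not the closer one in Cfap58, Cfap53 and Cfap36. Without DMSO replicate 1 limma called 23 (4.46% of all genes), and without DMSO replicate 2 it called 7 (1.74%). Leaving out DMSO replicate 2 lowered Cfap47 to 0.60 (adjusted p = 0.0616) and Cfap44 to 0.45 (adjusted p = 0.0369), and leaving out DMSO replicate 1 raised them to 1.56 and 0.90.

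**Figure D4:**
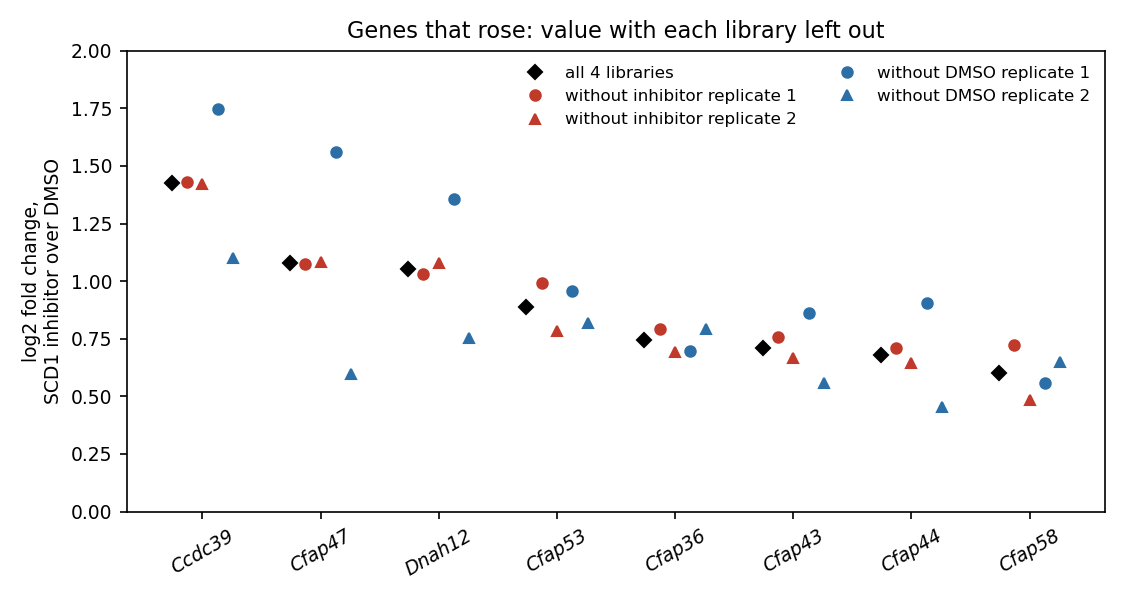
The log2 fold change, SCD1 inhibitor over DMSO, of the 8 genes that rose is shown with all 4 libraries and with each library left out in turn. All values stay above 0, and leaving out either DMSO library moves Ccdc39, Cfap47, Dnah12 and Cfap44 further than leaving out either inhibitor library.

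The libraries held 24591122 to 27013663 recovered reads. Markers of other lung epithelial cells moved in the same libraries. All 9 goblet cell markers were negative and 6 fell, and they took 0.0763% and 0.147% of reads with the inhibitor and 0.412% and 0.317% with DMSO. Of 10 club cell markers 5 fell and none was positive, with 2.61% and 1.80% against 2.95% and 2.61%, and of 10 alveolar type 2 markers 5 fell and 1 was positive, with 1.28% and 1.06% against 1.62% and 1.86%. All 5 tested basal markers were negative and none passed, and 1 of 7 alveolar type 1 markers fell (Aqp5, -0.85, adjusted p = 0.0203). Leukocyte, endothelial and fibroblast markers took at most 0.0239% of reads in any library, no member passed, and Ly6g and Lum were listed at 0 in all libraries. The part of cell makeup in the axonemal values was not tested.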

How the data were processed

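RNA had been extracted with TRIzol from sorted cells and made into libraries from 5 ng of total RNA with a strand-preserving kit, per the labels' protocols. The deposited signal values are read counts per gene that the authors divided by 1 size factor per library, which was read from the values: 100% lie within 0.01 of a whole multiple of 1 step per library. Tools named by the submitters' processing notes are HOMER and DESeq2, with mm10 as the build, and the aligner was not given in the sources used here. For DMSO replicate 2 the step (0.991) is close to 1, so its unit also rests on its size factor.

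Values were tested as log2(value + 25.8), which understates the change of low genes, for 13810 genes with a mean of at least 25.8 (1 CPM of the mean library). Group differences were fitted in R 4.3.3 using limma 3.58.1, whose prior variance followed mean intensity, with Benjamini-Hochberg adjustment over all genes and a threshold of 0.05. "Rose" and "fell" mean past it. Recovered reads went into edgeR 4.0.16 and DESeq2 1.42.0 as alternatives, and DESeq2 left 8418 genes after its own filter. The code was tested on simulated data. At the floor the counting error of a library is 19.7%, which covers counting error only. Genes were matched to GENCODE M21 (GRCm38, which is mm10), all 77 members included. Python 3.11.15 drew the figures.

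Other alternatives were other pseudocounts, floors and scalings, no trend, a replicate block, each library left out and a GC correction. Members, lists and tests were chosen with earlier results of these data known. Named were all members that passed, in each subfamily those of most reads and of highest and lowest fold change, the 5 Ccdc genes, Dnah5, Dnah9 and Dnah11, and list genes that passed or had most reads. Dnah2, Dnah10, Dnah7c, Dnah8, Dnah17, Rsph1 and Ttc14 were added after their values were seen.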

Additional observations from a re-analysis of the deposited data

How the results depend on the processing

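Over 35 named axonemal genes and 15 alternatives, 449 of 524 log2 fold changes kept their sign and their side of the threshold, 45 ended a call, 13 gained one and 17 changed sign. The count of genes that rose, 8 with all libraries, was 4 with no floor on low values (0.296% of all genes rose), 0 without the intensity trend (0% of all genes, 13 axonemal genes at an unadjusted p under 0.05), 0 with edgeR, 20 with DESeq2, 4 after GC correction and 0 to 23 with a library left out. Without the intensity trend, 1423 of all 13810 genes tested were at an unadjusted p under 0.05 in either direction. The replicate block gave 18 axonemal genes that rose (3.4% of all genes). Replicate numbers are not said to pair libraries, and the deviations of same-numbered libraries correlated at 0.073, so that fit was not used further. No axonemal gene fell under any of these alternatives. Cfap47 lost its call under every other alternative but the larger pseudocount, the block, DESeq2 and the fit without DMSO replicate 1. The median log2 fold change was 0.11 to 0.19 with a library left out and 0.19 after GC correction.

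None of the genes that changed sign had passed. After GC correction Dnah1 had 0.023, Dnal4 0.093, Drc3 0.010 and Drc7 0.049, and Dnali1 had -0.0036 with TMM scaling and -0.0048 with edgeR. With a library left out, values ran from -0.49 to 0.061 for Ccdc103, from -0.059 to 0.087 for Ccdc65, from -0.16 to 0.056 for Dnah9 and from -0.11 to 0.012 for Dnal4. They ran from -0.033 to 0.046 for Dnali1, from -0.053 to 0.024 for Drc3, from -0.16 to 0.032 for Drc7 and from -0.016 to 0.13 for Rsph9. The causes were not tested. Low read numbers limit genes such as Tekt5, Tekt3, Dnah17 and Cfap97d2.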
